A study of Mus musculus with 18 samples.

Results

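Hepcidin, its neighboring paralog and 8 genes that carry, store or take up iron were followed in tumors and livers of Alb-R26Met mice. The 10 genes, Hamp, Hamp2, Tfrc, Tfr2, Trf, Slc40a1, Fth1, Ftl1, Slc11a2 and Cp, were taken by symbol from a table of 28442 genes, and all 10 were among the 11452 genes expressed highly enough to be tested. Bulk RNA-seq had been done on 6 livers and 12 advanced tumors from 17 mice, because tumors 11 and 12 came from the same mouse. All mice were males of an F1 cross between C57 and 129Sv strains, and all carried the same alleles: a conditional mouse-human chimeric Met transgene at the Rosa26 locus and Cre recombinase driven by the Alb promoter, which is active in hepatocytes. The livers came from mice that had not developed tumors, aged 52 to 71 weeks (median 56.5), and the tumors from mice aged 49 to 72 weeks (median 65). The livers therefore also carried the Met transgene and were not wild-type controls, and no tissue next to a tumor was sequenced. The comparison asks how iron genes of the tumors differ from those of the livers, and how they vary from tumor to tumor.

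Hepatocytes secrete hepcidin, a small peptide hormone that binds the iron exporter ferroportin and causes its degradation, which holds iron inside macrophages, enterocytes and hepatocytes. Its gene Hamp is switched on by BMP6 acting through SMAD proteins when iron is plentiful, and by IL-6 acting through STAT3 in inflammation. Cells with little iron stabilize the transferrin receptor mRNA and hold back translation of ferritin and ferroportin through iron-responsive elements, which are short hairpins in the untranslated regions that bind iron regulatory proteins. Transferrin and ceruloplasmin are made by hepatocytes and released into plasma, so their transcripts reflect what the liver supplies to the body as well as what it keeps.

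The values are TPM, a length-corrected share of all transcripts in a sample. They are given in whole numbers, and they were divided here by 1 factor per sample to make samples comparable. They are called scaled values below, and log2 values are of the scaled value plus 1. Totals per sample before scaling were 835144 to 907513. A transcript annotated as Siglece took 17.9% to 29.5% of the total in livers and 21.5% to 82.9% in tumors, with the 82.9% in tumor 2. That sample also had the fewest genes above 0, 8718 against 11508 to 13819 in the other tumors, and a deposited value of 1 became 5.21 there after scaling. Sample names carry the tag E19 (2 livers and 7 tumors) or E20 (4 livers and 5 tumors), which the sources used here do not explain. The hepatocyte transcript Alb, which encodes albumin, was high in all samples, at scaled values of 20270 to 26289 in livers and 20008 to 44543 in tumors. Of 8 hepatocyte markers, Apoa1 was higher in tumors and Ass1, Tat and Cyp2e1 were lower (3 higher without tumor 2 or tumor 10, and Ass1 not called without any one of livers 2 to 6), and of 7 erythroid markers 4 were at 0 in every sample. In bulk tissue, fewer cells of a type and less RNA per cell cannot be told apart.

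Of the 10 genes, Tfrc, Trf and Cp were higher in tumors, Hamp and Tfr2 were lower, and 5 did not pass the threshold (limma, Benjamini-Hochberg adjusted over all genes tested). Among all genes tested, 19.1% passed it, 10.1% higher and 9.05% lower in tumors. The median log2 difference was -0.24 over the 10 genes and -0.05 over all genes tested. Tumors and livers did not overlap for Hamp and Trf, as was the case for 3.2% of all genes tested, with 2.24% having every tumor above every liver and 0.961% every tumor below. Without scaling between samples, Hamp alone passed. The log2 differences of the other 4 genes were then 0.92 for Tfrc, -1.01 for Tfr2, 0.88 for Trf and 0.96 for Cp (adjusted p = 0.118, 0.0656, 0.15 and 0.165).

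**Figure D1:**
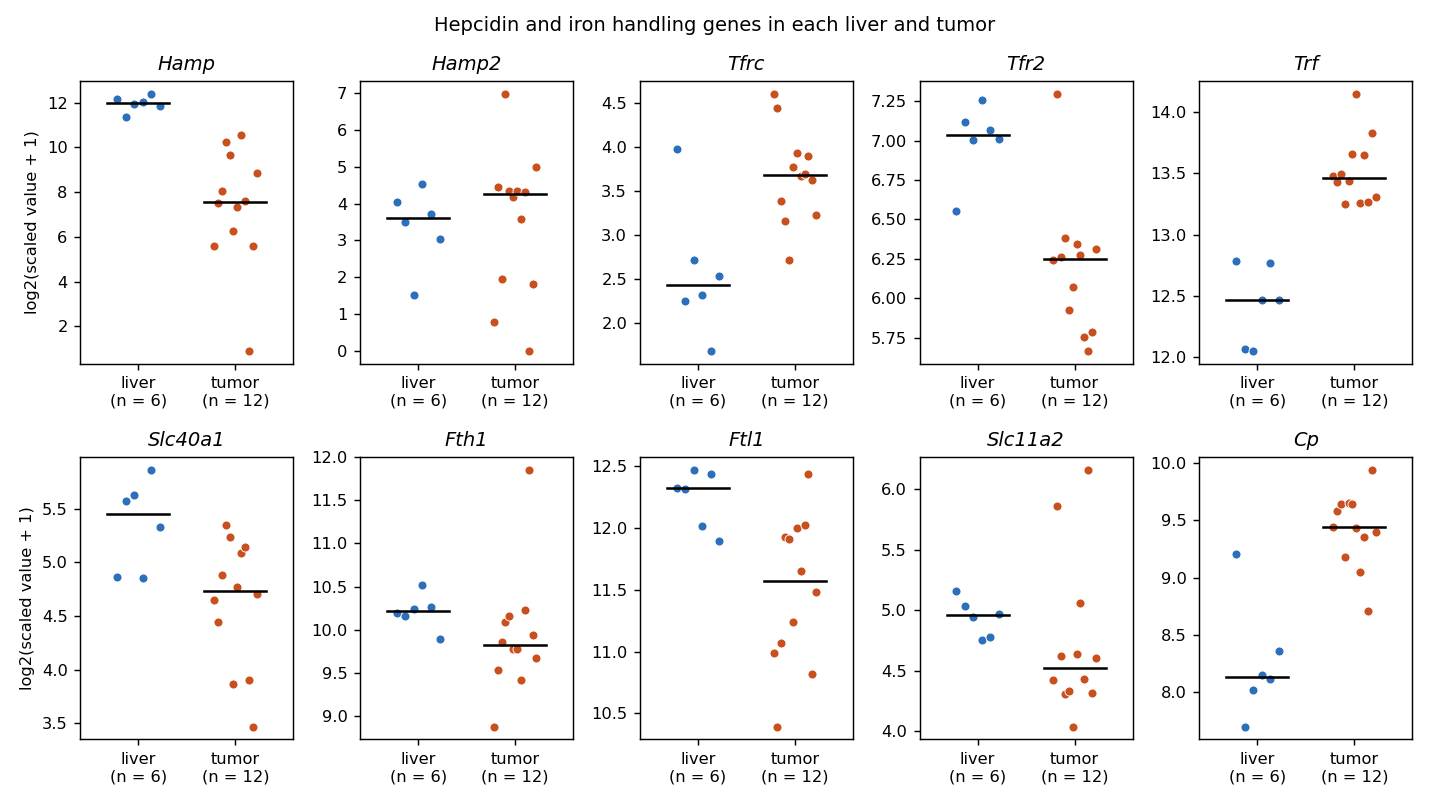
Each point is 1 sample, with log2 of the scaled TPM plus 1 on the vertical axis (each panel has its own range, which does not start at 0), 6 livers on the left and 12 tumors on the right, and a black line at the group median. For Hamp all 12 tumors lie below the 6 livers, for Trf all 12 lie above them, and single points that stand apart include tumor 10 in Hamp and Fth1, tumor 2 in Tfr2, tumors 2 and 10 in Slc11a2 and liver 1 in Tfrc and Cp.

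Hamp was lower in every tumor than in any liver. Scaled values were 2585 to 5364 in the 6 livers, with a median of 4036, and 0.873 to 1509 in the 12 tumors, with a median of 188. The lowest liver was 1.71 times the highest tumor, so the groups did not overlap, and the ratio of the medians was 21.5. By its mean, Hamp ranked 17th among all genes in livers and 130th in tumors. The log2 difference was -4.61 (SE 0.96, limma adjusted p = 0.00188), and no other of the 11452 genes tested had a lower one. The interval of this difference was wide, from -6.61 to -2.60, since the tumors were far apart. Tumor 10, the lowest, moved it most: without tumor 10 the log2 difference was -4.02, and adjusted p was 0.000164. Within the E20 samples alone the log2 difference was -4.07 (adjusted p = 0.023), and within the E19 samples alone, with only 2 livers, it was -5.15 but did not pass the threshold (adjusted p = 0.0949).

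The tumors covered a wide range of Hamp values. The scaled values were 1509 in tumor 8, 1223 in tumor 4, 801 in tumor 5 and 459 in tumor 12. Tumors 3, 9, 2 and 7 were at 261, 193, 182 and 160, and tumors 6, 11 and 1 at 76.2, 47.9 and 46.8. Tumor 10 stood alone at the bottom at 0.873, which is a deposited value of 1. The values of 47.9 and 459 belong to tumors 11 and 12, which came from the same mouse. The SD of the log2 values was 2.62 in tumors and 0.35 in livers, against a median SD over all genes tested of 0.48 in tumors, and only 0.0262% of genes had a tumor SD as large. Tumor 10 weighs heavily in this SD, at a log2 value of 0.91 against 5.58 to 10.56 in the other tumors. By mean absolute deviation from the group median the spread was 1.81 in tumors and 0.24 in livers (exact permutation test over 18564 splits, two-sided, p = 0.0405, adjusted p = 0.999). No gene passed this test after adjustment, and 4.37% of genes had an unadjusted p under 0.05, of which those wider in tumors made up 3.35% of all genes. With 1 sample left out in turn, the difference in mean absolute deviation of Hamp ran from 1.13 to 1.73.

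Hamp2 lies close to Hamp on mouse chromosome 7 and arose by duplication of that gene. On build GRCm38.p6, RefSeq places Hamp at chr7:30942368-30944029 and Hamp2 at chr7:30922372-30924181, both on the minus strand. The proximal promoters of both genes are shown because Hamp fell in tumors and Hamp2 did not pass the test, although much of this sequence is the same. Capitals mark the 6 bases of the BMP-responsive element of Hamp, or the bases in that place in Hamp2, and then the 9 bases of the STAT3 site TTCNNNGAA.
Hamp promoter, bases -140 to -61 from the transcript start, chr7:30944090-30944169, minus strand: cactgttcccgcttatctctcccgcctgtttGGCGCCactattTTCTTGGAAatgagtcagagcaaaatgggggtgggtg
Hamp2 promoter, bases -137 to -58, chr7:30924239-30924318, minus strand: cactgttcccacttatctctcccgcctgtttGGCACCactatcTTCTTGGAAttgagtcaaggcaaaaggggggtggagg
Of the 80 bases, 71 were equal in both genes. The STAT3 site was the same in both, and the 6-base element differed by G4A, counted from 1 at its 5′ end with the Hamp base first. Among 32851 RefSeq promoter windows, which run from 250 bases before to 50 bases after a transcript start, GGCGCC occurred in 11.9%, TTCNNNGAA in 8.30% and both in 0.645%, on either strand. A match to these letters is a description of the window and not evidence of binding.

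Hamp2 gave no difference past the threshold. It was at 1.86 to 22.0 in livers, with a median of 11.2, and at 0 to 125 in tumors, with a median of 18. The groups overlapped widely, with 2 tumors above every liver and 2 below. The highest value was in tumor 4 and the value of 0 in tumor 10, which also had the lowest Hamp. The log2 difference was 0.09 (SE 0.77, adjusted p = 0.954), with an interval from -1.50 to 1.68 that includes rises and falls of more than 2-fold, and its sign changed when tumor 4, tumor 12 or liver 3 was left out. Within each sample, the log2 ratio of Hamp to Hamp2 was 7.50 to 10.46 in livers and 1.0 to 7.01 in tumors, with all 12 tumors below every liver. The mean ratio differed by -4.70 (exact permutation test, two-sided, p = 5.39e-05, adjusted over the 4 ratios tested 0.000215; the smallest p that the 18564 splits can give is 5.39e-05). A ratio within a sample does not depend on the scaling between samples. Of the 380 stretches of 31 bases in the Hamp transcript, 128 also occur in Hamp2, and of the stretches of 100 bases none does. The study lists paired-end reads of 100, taken here as bases, so a read of full length would differ between the 2 genes. How reads were divided between them was not tested.

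**Figure D2:**
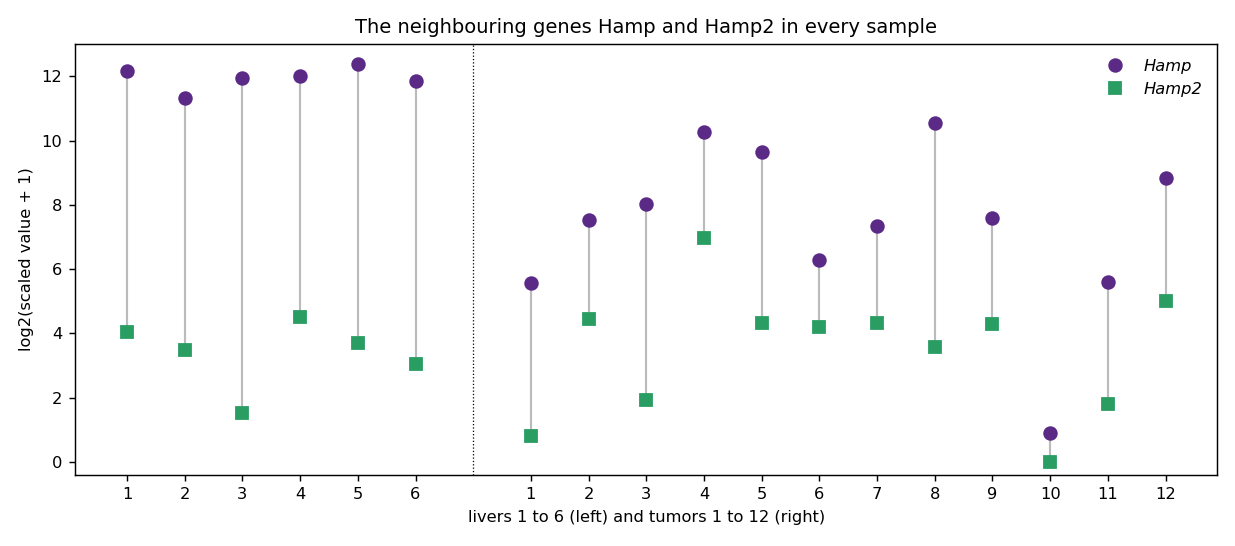
Hamp (circles) and Hamp2 (squares) in each of the 6 livers and 12 tumors, as log2 of the scaled TPM plus 1, with a grey line joining the 2 genes of a sample. The gap between the genes is shorter in each of the 12 tumors than in any liver, and Hamp2 runs from 1.86 to 22.0 in livers and from 0 to 125 in tumors on the scaled scale.

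Iron enters hepatocytes bound to transferrin, and the genes of this route moved in different directions. Trf, the gene of transferrin itself, was among the most abundant transcripts: it ranked 6th by mean among tumors. Scaled values were 4234 to 7065 in livers, with a median of 5637, and 9728 to 18195 in tumors, with a median of 11288. All 12 tumors were above every liver, with the highest value in tumor 7. The log2 difference was 1.09 (SE 0.21, adjusted p = 0.000776). It was 0.97 within E19 samples alone, short of the threshold (adjusted p = 0.0602), and 1.09 within E20 samples alone (adjusted p = 0.0456).

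Tfrc encodes transferrin receptor 1, the receptor through which dividing cells take up transferrin. It was at 2.20 to 14.8 in livers, with a median of 4.39, and at 5.58 to 23.4 in tumors, with a median of 11.9. Only 2 tumors were above liver 1, which stood apart at 14.8, whereas 11 of the 12 were above the other 5 livers, which were at 5.59 or below. The log2 difference was 1.1 (SE 0.29, adjusted p = 0.00926), and 1.38 without liver 1 (adjusted p = 0.000515). Within E19 samples alone it was 1.49 (adjusted p = 0.0133), and within E20 samples alone, which include liver 1, it was 1.08 and did not pass (adjusted p = 0.163). In the same samples, Mki67, Top2a, Cdk1, Birc5 and Rrm2, the proliferation markers that could be tested, were all higher in tumors (Cdk1 not without liver 1 or liver 2), and their summed level together with Ccnb1 was 0.738 to 6.52 in livers and 10.9 to 45.4 in tumors. The part of proliferating cells in the Tfrc difference was not tested.

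Tfr2, transferrin receptor 2, is mainly a hepatocyte protein that senses transferrin-bound iron and helps to switch on Hamp. It went the other way, from 92.9 to 152 in livers, with a median of 130, to 49.8 to 156 in tumors, with a median of 75.2. Of the tumors, 11 were below every liver, and tumor 2, the sample dominated by Siglece, was above every liver. The log2 difference was -0.81 (SE 0.20, adjusted p = 0.00587), and -0.91 without tumor 2 (adjusted p = 0.000128). Within E20 samples alone, to which tumor 2 belongs, it was -0.48 and did not pass the threshold (adjusted p = 0.429), and within E19 samples alone it was -1.14 (adjusted p = 0.0122). The log2 ratio of Tfrc to Tfr2 was -5.35 to -2.60 in livers and -3.25 to -1.64 in tumors, higher by 1.93 on average in tumors (exact permutation test, two-sided, p = 0.000377, adjusted over the 4 ratios 0.000646), with 6 tumors above every liver.

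**Figure D3:**
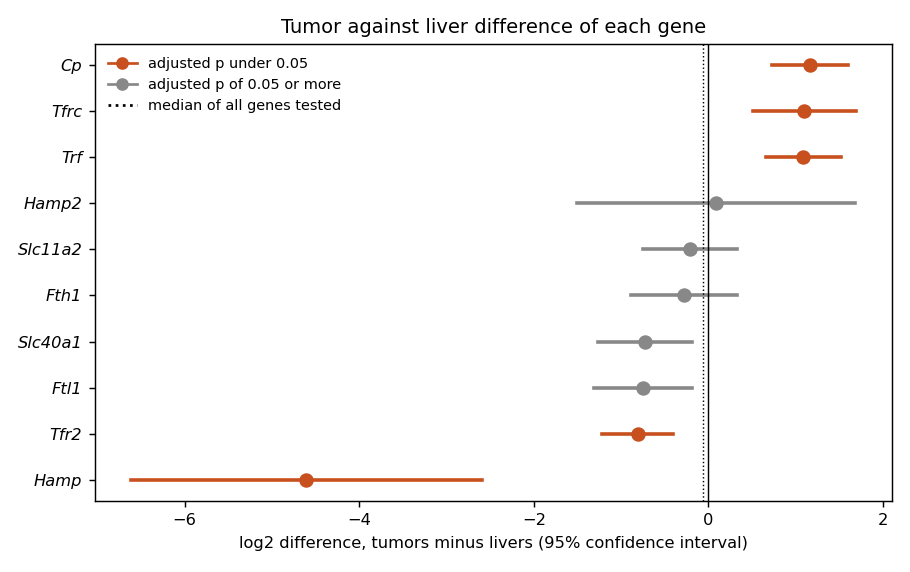
Log2 difference between 12 tumors and 6 livers for each of the 10 genes (circles) with its 95% confidence interval (lines), ordered from highest to lowest; orange marks adjusted p under 0.05, and the dotted line the median of all genes tested. Cp, Tfrc and Trf lie near 1, Tfr2 at -0.81 and Hamp at -4.61, with the widest interval, and the intervals of Hamp2, Slc11a2 and Fth1 include 0.

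The export side was represented by Slc40a1, which encodes ferroportin, and by Cp, which encodes ceruloplasmin, a plasma ferroxidase that loads exported iron onto transferrin. Cp was at 206 to 588 in livers, with a median of 278, and at 416 to 985 in tumors, with a median of 693. Liver 1 was again the highest liver, the next being at 328, so that 9 tumors were above every liver and all 12 were above the other 5. The log2 difference of Cp was 1.17 (SE 0.21, adjusted p = 0.0005), and 1.35 without liver 1 (adjusted p = 3.55e-05). Within E19 samples alone it was 1.29 (adjusted p = 0.0182), and within E20 samples alone 1.1, which did not pass (adjusted p = 0.0825). Slc40a1 was at 28.0 to 57.2 in livers and at 10.1 to 39.7 in tumors, with medians of 42.9 and 25.7. It had 7 tumors below every liver, and its log2 difference of -0.73 (SE 0.26) missed the threshold (adjusted p = 0.0546). That result lay close to the threshold: leaving out 1 sample in turn gave adjusted p between 0.0338 and 0.13. Without liver 1 the log2 difference was -0.82 (adjusted p = 0.0365).

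Hepcidin acts on ferroportin, and the transcripts of both were therefore also set against each other within each sample. The log2 ratio of Hamp to Slc40a1 was 5.77 to 7.32 in livers and -3.09 to 5.48 in tumors, and all 12 tumors were below every liver. The mean ratio differed by -3.91 (exact permutation test, two-sided, p = 0.000485, adjusted over the 4 ratios 0.000646). Within the E19 samples alone, with 2 livers and 7 tumors, it differed by -4.48 but the exact permutation test gave p = 0.111.

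Iron inside the cell is stored in ferritin, a shell of heavy chains, which oxidize iron, and light chains, which help to form the mineral core. Fth1, the heavy chain gene, was at 949 to 1460 in livers, with a median of 1190, and at 470 to 3702 in tumors, with a median of 903. Of the tumors, 7 were below every liver and 1, tumor 10, was above every liver at 3702, the next tumor being at 1196. The log2 difference of -0.28 did not pass the threshold (SE 0.29, adjusted p = 0.571), and without tumor 10 it was -0.45 (adjusted p = 0.114). Ftl1, the light chain gene, was at 3802 to 5686 in livers and at 1344 to 5532 in tumors, with medians of 5114 and 3043. It had 7 tumors below every liver and none above, and the log2 difference of -0.75 (SE 0.27) came close to the threshold (adjusted p = 0.0562). Without tumor 10 it was -0.83 (adjusted p = 0.0222), and without tumor 2 it was -0.65 (adjusted p = 0.04). The mean absolute deviation of log2 Ftl1 was 0.50 in tumors and 0.17 in livers (exact permutation test, p = 0.0281, adjusted p = 0.999). The log2 ratio of Fth1 to Ftl1 was -2.23 to -1.51 in livers and -2.24 to -0.58 in tumors, a mean difference of 0.47 that did not pass (exact permutation test, p = 0.0739).

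Slc11a2 encodes DMT1, which moves iron out of endosomes into the cytosol. It was at 26.0 to 34.7 in livers and 15.4 to 70.7 in tumors, with medians of 30.1 and 22.0. Of the tumors, 9 were below every liver, whereas tumors 10 and 2 were above every liver at 70.7 and 57.3. The log2 difference was -0.21 (SE 0.26, adjusted p = 0.649). Tumor 10 thus had the lowest Hamp, Hamp2, Tfr2 and Cp values among the tumors and the highest Fth1, Ftl1 and Slc11a2 values. In the same tumor, Cps1 and Ass1, enzymes of the urea cycle and markers of hepatocytes, were at 2.62 and 15.7. The other tumors were at 245 to 932 and 339 to 1120. Alb, at 20008, was the lowest of all samples, against 28435 to 44543 in the other tumors. Among the tumors, the hepatocyte markers Ttr, Serpina1a, Tat and Apoa1 were also lowest in tumor 10. Cyp2e1 went the other way, at 2170 against 46.8 to 840 in the other tumors.

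Iron-responsive elements are shown because their place in the mRNA bears on what an RNA-seq value can report: elements in the 3′ UTR of the transferrin receptor mRNA govern its stability, while those in the 5′ UTR of ferritin and ferroportin mRNA govern translation, which RNA-seq does not measure. A search of GENCODE transcripts on GRCm38 for an unpaired C followed by 5 bases that pair with the 5 bases beyond a CAGTGN loop (the last base of the loop not being G) found the pattern in 222 of 21877 genes (1.01%) and in 4 of the 10 genes. Capitals mark the 6 bases of the loop.
Fth1, 5′ UTR, chr19:9982732-9982760, plus strand: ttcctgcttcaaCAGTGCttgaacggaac
Ftl1, 5′ UTR, chr7:45459779-45459807, minus strand: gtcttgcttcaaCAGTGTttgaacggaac
Slc40a1, 5′ UTR, chr1:45925465-45925493, minus strand: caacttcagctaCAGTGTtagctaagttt
Tfrc, 3′ UTR, first of 4, chr16:32631219-32631247, plus strand: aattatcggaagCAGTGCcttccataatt
Tfrc, 3′ UTR, last of 4, chr16:32631710-32631738, plus strand: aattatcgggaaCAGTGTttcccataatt
Of these genes, Tfrc, with elements in the 3′ UTR, was higher in tumors, and the 3 genes with an element in the 5′ UTR did not pass the threshold and had log2 differences of -0.73 (Slc40a1), -0.28 (Fth1) and -0.75 (Ftl1). Only Tfrc stands for elements in the 3′ UTR here, so these values do not tie the place of an element to a direction. No match in the other genes, such as Slc11a2 (log2 difference -0.21), says only that these letters were not found. It does not mean that the gene has no element.

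The BMP and IL-6 routes to Hamp were described by 25 genes upstream of it, of which 24 could be tested. None was higher in tumors and 3 were lower (against 10.1% and 9.05% of all genes tested), with a median log2 difference of -0.06. Smad9, which encodes a BMP-activated SMAD also known as SMAD8, was at 6.60 to 13 in livers and at 0 to 2.94 in tumors, with no overlap (log2 difference -2.52, SE 0.31, adjusted p = 6.17e-06). Every tumor was below every liver for 0.961% of all genes tested. Bmp6, the ligand that signals iron load, was at 2.40 to 4.99 in livers and 0 to 5.21 in tumors. Its 5.21 was in tumor 2 and was a deposited value of 1, and 9 tumors were below every liver (log2 difference -0.84, SE 0.29, adjusted p = 0.0453). Il6ra, a subunit of the IL-6 receptor, was at 10.3 to 61.5 in livers and 6.38 to 26.0 in tumors (log2 difference -0.98, SE 0.32, adjusted p = 0.0389). Of these 3 calls, that of Smad9 held with each of the 18 samples left out in turn, but the other two did not. Bmp6 lost its call in 12 of the 18 (adjusted p from 0.00836 to 0.114; without liver 2, 3, 4, 5 or 6 or tumor 1, 3, 5, 6, 9, 10 or 11), and Il6ra in 9 (adjusted p from 0.00218 to 0.123; without liver 2, 3, 4 or 6 or tumor 3, 5, 7, 9 or 11).

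The other upstream genes did not pass. Hjv, the BMP co-receptor hemojuvelin, was at 13 to 29.7 in livers and 19.1 to 33.7 in tumors (log2 difference 0.22, adjusted p = 0.391). Hfe, a partner of the transferrin receptors, was at 13.3 to 25.3 in livers and 8.35 to 16.7 in tumors (log2 difference -0.43, adjusted p = 0.0849). Tmprss6, a protease that cleaves hemojuvelin and thereby restrains Hamp, was at 85.6 to 198 in livers and 60.5 to 130 in tumors (log2 difference -0.51, adjusted p = 0.0682). The count of 3 lower genes depended on single samples, and ran from 1 to 7. It was 7 without liver 1 and 6 without tumor 2, but 1, Smad9, without liver 2, 3, 4 or 6 or tumor 3, 5, 9 or 11, and 1 in the E19 or the E20 samples alone.

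Target genes of the same signals included several that fell in tumors. Of 10 targets, 5 were lower and 1 was higher in tumors (against 9.05% and 10.1% of all genes tested), and the median log2 difference was -0.91. All 5 lower ones respond to BMP and SMAD signaling. Not every such target fell: Id2, at 30.96 to 111.4 in livers and 26.04 to 109.6 in tumors, did not pass. The number of lower genes was 4 without liver 1 or liver 4 and 5 without any other single sample. Smad7, an inhibitory SMAD, was at 17.6 to 37.6 in livers and 3.49 to 12.5 in tumors, with no overlap (log2 difference -1.73, SE 0.23, adjusted p = 1.4e-05). Atoh8, the gene of a transcription factor induced by BMP signaling, was at 9.99 to 21.4 in livers and 0 to 6.68 in tumors, again with no overlap (log2 difference -1.91, SE 0.36, adjusted p = 0.000778). Of all genes tested, 0.961% had every tumor below every liver.

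Id3 was at 50.3 to 155 in livers and 7.56 to 43.6 in tumors without overlap, as were 0.961% of all genes tested in this direction (log2 difference -2.12, SE 0.33, adjusted p = 0.000119). Smad6, the other inhibitory SMAD, was at 3.72 to 8.11 in livers and 0 to 5.21 in tumors (log2 difference -1.30, SE 0.30, adjusted p = 0.00427). Its 5.21 was in tumor 2 and was a deposited value of 1, and the next tumor was at 3.67, below every liver. Id1 was at 15.8 to 72.3 in livers, the highest being liver 1, and at 3.78 to 26.0 in tumors (log2 difference -1.19, adjusted p = 0.0312), and did not pass without liver 1 (log2 difference -0.88, adjusted p = 0.0902) or without liver 4. Of the targets linked to IL-6 and STAT3, Saa1 was at 20.8 to 191 in livers and 18.3 to 76.9 in tumors and did not pass (log2 difference -0.63, adjusted p = 0.319), and neither did Socs3 and Saa2. Lcn2, which encodes lipocalin 2, a protein that binds bacterial iron carriers, was the one that was higher, at 10.3 to 251 in livers and 115 to 1289 in tumors (log2 difference 3.44, SE 0.56, adjusted p = 0.000186), and its highest liver was liver 1.

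**Figure D4:**
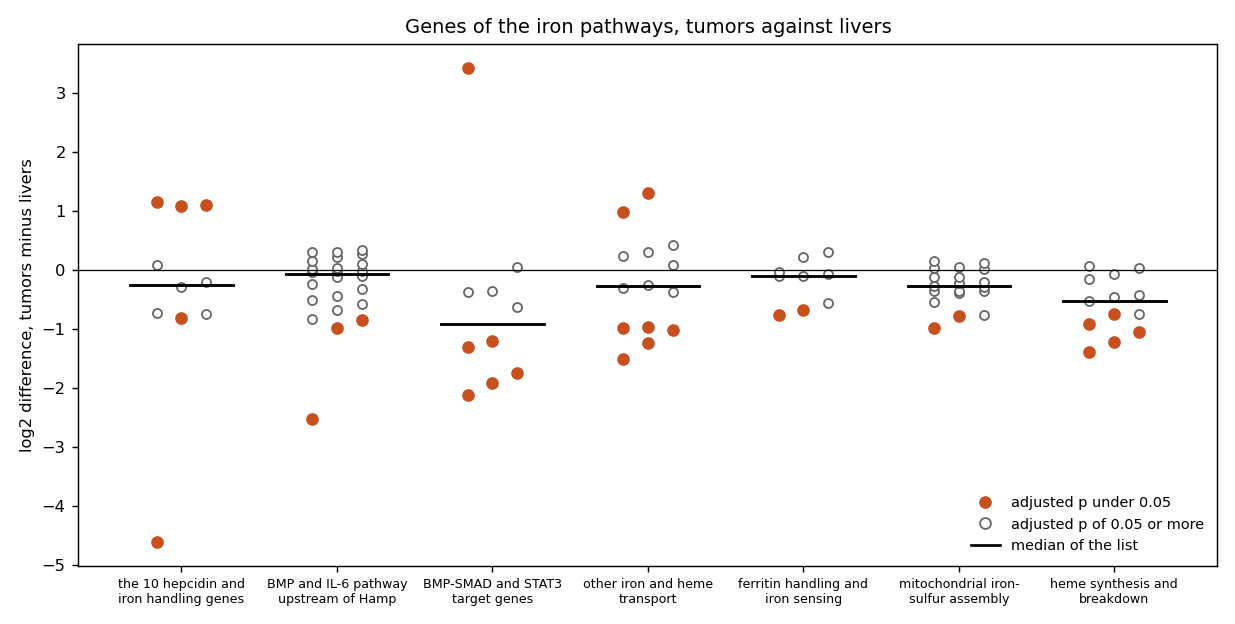
Log2 difference between 12 tumors and 6 livers for each tested gene (circles) of 7 gene lists, with filled orange circles for adjusted p under 0.05 and a black line at the median of the list. The 5 lower BMP and SMAD targets lie between -2.12 and -1.19, Hamp lies at -4.61, and the other lists have medians between -0.52 and -0.06.

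Other transport routes, ferritin turnover, heme and iron-sulfur clusters were covered by 4 further lists. The counts of each list stand against 10.1% higher and 9.05% lower over all genes tested. Of 14 tested genes of other iron and heme transport, 2 were higher and 5 were lower, with a median log2 difference of -0.27. Slc48a1, which exports heme from lysosomes to the cytosol, was at 22.4 to 38.5 in livers and 31.2 to 237 in tumors (log2 difference 1.32, adjusted p = 0.00284). Steap4, a metalloreductase, was the other higher gene (log2 difference 0.98, adjusted p = 0.00925). Lrp1, which takes up hemopexin-bound heme among many ligands, fell (log2 difference -0.98, adjusted p = 0.0102), as did Steap2, another metalloreductase, which was listed at 0 in 9 tumors (log2 difference -1.23, adjusted p = 0.00456). Hp and Hpx, the genes of haptoglobin and hemopexin, which capture hemoglobin and heme in plasma, did not pass (log2 differences 0.31 and 0.43, adjusted p = 0.393 and 0.25), and Heph, the intestinal ferroxidase, was too low to be tested. The 2 higher genes were called with each sample left out in turn, whereas the 5 lower became 2 without liver 4 and 3 without liver 3, 5 or 6 or tumor 12. In the E19 samples alone 1 gene was lower and none higher, and in the E20 samples alone none was called.

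Of 9 tested genes of ferritin handling and iron sensing, 2 were lower and none was higher, with a median of -0.09. Ireb2, the gene of iron regulatory protein 2, was at 23.3 to 39.1 in livers and 10.4 to 30.7 in tumors (log2 difference -0.67, adjusted p = 0.0175). Ncoa4, the receptor that delivers ferritin to lysosomes, was at 44.3 to 64.3 in livers and 15.6 to 53.5 in tumors (log2 difference -0.75, adjusted p = 0.0167). Aco1 (iron regulatory protein 1) had a log2 difference of -0.55 and Hif1a one of 0.30, and neither passed (adjusted p = 0.0554 and 0.245). Ireb2 lost its call without liver 3 (adjusted p = 0.0571), which left 1 lower gene.

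Of 13 tested genes of heme synthesis and breakdown, 5, all of synthesis, were lower and none was higher, with a median of -0.52. The count was 1 without liver 4, 2 without liver 2 or liver 3 and 4 to 6 without any other single sample, and it was 1 in the E19 samples alone and 0 in the E20 samples alone. Cpox, the gene of coproporphyrinogen oxidase, was at 37.6 to 88.9 in livers and 7.25 to 69 in tumors (log2 difference -1.38, adjusted p = 0.0143). Alad and Fech, which act near the beginning and at the end of the pathway, fell by 0.91 and 0.75 on the log2 scale (adjusted p = 0.0196 and 0.0205), and Alas1, the rate-limiting enzyme in liver, by 1.05 (adjusted p = 0.0266). Alas2, the erythroid form, also fell (log2 difference -1.22, adjusted p = 0.037), a call lost in 9 of the 18 fits without 1 sample (without liver 2, 3, 4, 5 or 6 or tumor 5, 6, 9 or 11). Of 19 genes of mitochondrial iron-sulfur cluster assembly, 2 were lower, Abcb10 (log2 difference -0.98, adjusted p = 0.000369) and Fdx1 (log2 difference -0.78, adjusted p = 0.0486), and 17 did not pass. Fdx1 lost its call in 14 of the 18 fits without 1 sample (adjusted p from 0.014 to 0.126), all but those without liver 1 or tumor 4, 7 or 10, and the count for the list was 1 to 3. Without scaling, 1 heme gene, 1 iron-sulfur gene and 0 ferritin genes were called.

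Across the 11 tumor-bearing mice, with tumors 11 and 12 averaged, Hamp was set against 13 of its upstream genes and targets. Pearson's r passed after adjustment for Atoh8 (r = 0.82, permutation p = 0.00471, adjusted p = 0.0357) and Smad7 (r = 0.78, permutation p = 0.00549, adjusted p = 0.0357). Spearman's rho was 0.64 and 0.69 and did not pass (permutation p = 0.041 and 0.0226, adjusted p = 0.133 and 0.101). Without the 2 mice farthest from the median of Hamp, r was 0.44 and 0.37, so both values of r rested on those mice, but what was left covered a narrower range of Hamp. Within the 7 E19 tumors r was 0.91 for Atoh8 and 0.77 for Smad7, and none of the 13 relations passed (permutation adjusted p = 0.0929 and 0.136). The 5 E20 tumors were below the 6 samples set here as the fewest for a correlation. Their order by Hamp, tumors 1, 6, 2, 12 and 8, was also their order by Smad7, at 5.12, 6.35, 10.4, 11.7 and 12.5, while 2 neighboring pairs changed places by Atoh8. In tumor 2 a step of 1 in the deposited whole numbers is 5.21 after scaling. Its place by Smad7 or Atoh8 beside tumors 12 and 8 is therefore not settled. Id1 (r = 0.61), Smad6 (r = 0.55), Bmp6 (r = 0.41), Tfr2 (r = 0.33) and Hjv (r = 0.08) did not pass after adjustment.

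**Figure D5:**
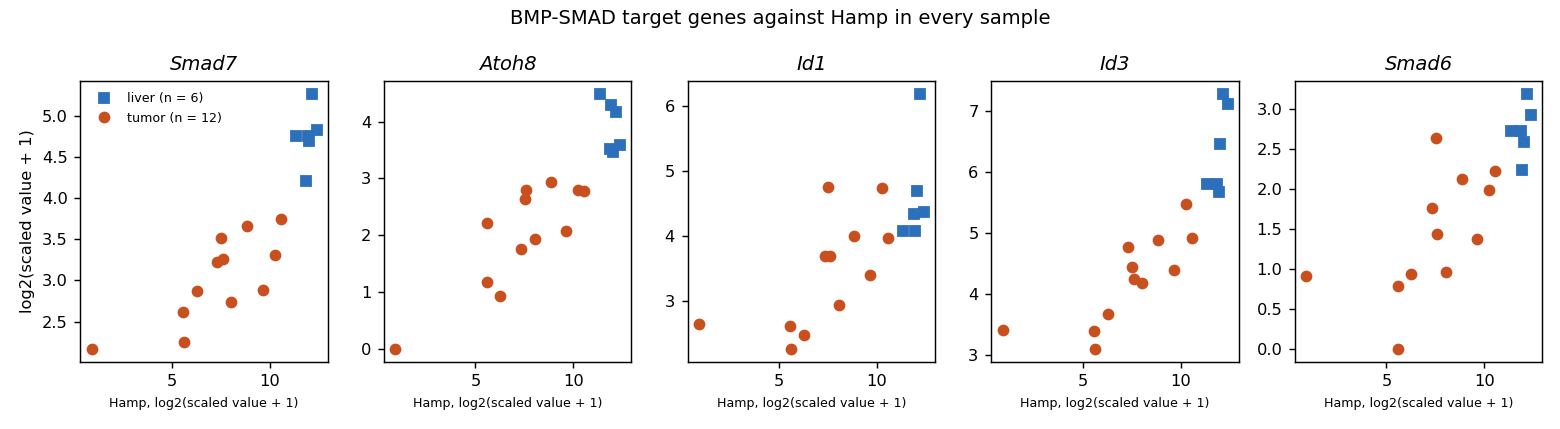
Log2 of the scaled TPM plus 1 of Smad7, Atoh8, Id1, Id3 and Smad6 (vertical axes, each with its own range) against that of Hamp (horizontal axis) in 6 livers (squares) and 12 tumors (circles). For Smad7, Atoh8 and Id3 the livers lie apart from the tumors at the upper right, and tumor 10 lies at the far left.

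Among the 10 genes themselves, none of the 45 pairs passed after adjustment over the tumor-bearing mice. The closest was Hamp with Slc40a1 (r = 0.76, permutation p = 0.00247, adjusted p = 0.111, and rho = 0.84, permutation p = 0.00215, adjusted p = 0.0967), and r was 0.72 without the 2 mice farthest from the median of Hamp. Within the 7 E19 tumors r was 0.79 (permutation adjusted p = 0.301). Hamp and Hamp2 had r = 0.74 (permutation adjusted p = 0.174) and rho = 0.56, and Hamp and Tfrc r = -0.49 and rho = -0.67, neither past the threshold. None of the 10 genes was related to age after adjustment (10 relations). The closest was Tfrc (r = 0.67, permutation p = 0.0241, adjusted p = 0.241, and rho = 0.76, permutation p = 0.00853, adjusted p = 0.0853), with r = 0.52 without the 2 mice farthest from the median age.

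The genes ranked most like Hamp across the 12 tumors were found by Spearman's rho over all genes tested, as a description without a test. They were Pcca (rho = 0.93), Gas2 (0.90), Srr (0.90), Sult2a8 (0.89) and Wdr11 (0.89), and the most opposed were Ttc39a (-0.90), Arl6ip6 (-0.89), Igfbp1 (-0.87), Rdm1 (-0.84) and Tnfrsf23 (-0.81). Several were low in tumors: Ttc39a at 1.98 to 6.11, Arl6ip6 at 3.67 to 5.24, Rdm1 at 2.39 to 5.24 and Tnfrsf23 at 0 to 12.2. Gas2 was at 1.75 to 15.9. At such levels, rounding to whole numbers and the factor of each sample can set the order of the tumors. Of the other 9 iron genes, Slc40a1 had the highest rho with Hamp in these 12 tumors (0.80) and Tfrc the lowest (-0.69). Igfbp1 was at 17.6 to 75.2 in livers and 118 to 1184 in tumors, with no overlap, and was highest in tumor 10. Every tumor was above every liver for 2.24% of all genes tested.

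Whether the tumor-liver difference depended on the tag was tested by an interaction term. It passed for none of the 11452 genes by limma (2.98% had an unadjusted p under 0.05), and for the 10 iron genes the smallest unadjusted limma p was 0.0949 (adjusted p = 0.971), for Tfr2. Counts of the cell type marker lists also stand against 10.1% higher and 9.05% lower over all genes tested. The Kupffer cell and macrophage list, whose cells also express Slc40a1, had 1 of 8 tested markers lower in tumors and none higher. Its summed levels were 77.4 to 222 in livers and 31.5 to 194 in tumors. Clec4f, a Kupffer cell marker, was the 1 called (log2 difference -1.46, adjusted p = 0.0383) and was 0 in at least 1 tumor. It lost its call in 8 of the 18 fits without 1 sample (adjusted p from 0.0275 to 0.104; without liver 2, 3, 4, 5 or 6 or tumor 1, 9 or 11) and in the E19 and E20 samples alone, which left none of the 8 lower. The part of macrophage content in the Slc40a1 values was not tested. Of the other marker lists, 2 of 7 endothelial markers were higher and none lower, 2 of 6 stellate cell and fibroblast markers were higher and 2 lower (1 without liver 6), 1 of 2 tested cholangiocyte markers was higher, and none of the 1 lymphoid and 3 erythroid markers tested passed.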

How the data were processed

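Poly-A RNA of 6 livers and 12 tumors had been sequenced in bulk. The authors aligned the reads to GRCm38, used Salmon for quantification and expressed genes as TPM. Values in the deposited table are a whole-number score, named raw counts in the study, and were read as rounded TPM because 882 of 900 TPM values of its supplement match after rounding. Read numbers cannot be recovered from them, so the depth behind each value is unknown and no counting intervals are given. In the table, 12874 genes were at 0 throughout, and 8 lines had an extra separator. Groups came from sample titles, and ages from the supplement, where mouse numbers of 2 tumors differed and tumor number and tag were used instead.

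Samples were scaled by trimmed means of log ratios (30% of M values, 5% of A values removed). Genes reaching a scaled 1 in 6 or more samples were fitted on log2(value + 1) with limma 3.58.1 (R 4.3.3) and a trended prior variance, and a Benjamini-Hochberg adjusted p under 0.05 was called. Differences on this scale understate changes of low genes. Ratios and spreads were tested by exact permutation over 18564 splits, two-sided, and correlations by 100000 permutations (Python 3.11.15, scipy 1.17.1). The fit was tested on simulated data. Each sample came from its own mouse, except tumors 11 and 12, which shared a mouse. The main limma fit and the exact permutation tests counted these tumors as independent samples. The p-values measure the spread between these samples, which may be technical in part.

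The 10 genes, the lists and the tests were chosen with earlier results of these data known. Named beside the 10 genes were Bmp6, Hjv, Hfe, Tmprss6, Id1, Smad6, Smad7, Atoh8, up to 4 genes of each list with the smallest p, and the 5 most and 5 least correlated with Hamp (symbols of the Gm and Rik kinds left out). Siglece, Alb, Cps1, Id2, Saa1, Saa2, Socs3, Hp, Hpx, Heph, Alas2, Cdk1 and Ccnb1 were named after their values were seen. Promoters and positions are from RefSeq on GRCm38.p6, iron-responsive elements from GENCODE vM21 transcripts. Alternatives covered scaling, filter, pseudocount, tag, age, a replicate block, averaging the 2 tumors of 1 mouse, sample weights and leaving out samples.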

Additional observations from a re-analysis of the deposited data

Results flagged for a closer look

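Over the 6 livers, 77 results were examined for a single sample far from the others, and 16 had a gap of the end sample to its nearest neighbor, divided by the range, above Dixon's 95% critical value. Chance flags about 1 in 20, or 3.85 of 77. Liver 1 stood apart in 7 of them, and 5 of these were high values. Among the iron genes these were Tfrc (gap ratio 0.730), at 14.8 against at most 5.59 in the other livers, and Cp (0.682), at 588 against at most 328. Liver 1 was also the highest for Lcn2 (0.777), at 251 against at most 63.9, for Id1 (0.838), at 72.3 against at most 25.0, and for Ttc39a (0.684), at 2.95 against at most 0.932. It was the lowest for Kdr (0.710), at 2.95 against at least 6.53, and for Birc5 (0.726), at 0 against at least 0.799.

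Liver 5 was the highest for the macrophage genes Clec4f (0.770), at 37.4, Cd5l (0.708), at 44.0, and Csf1r (0.766), at 13.2. Liver 3 was the highest for Alas1 (0.693), at 277 against at most 129, and for Top2a (1.0), being the only liver above 0, at 0.931. Liver 2 was the highest for Hba-a2 (0.657), at 9.32, and for Tnfrsf23 (1.0), the only one above 0 at 0.932. Liver 6 was the highest for Ptprc (0.683), at 4.79. Liver 4 had the highest log2 ratio of Fth1 to Ftl1 (0.684), at -1.51 against at most -2.0.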

How the results depend on the processing

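Hamp kept its direction under every alternative and lost its call only in the E19 samples alone, and its rank from the lowest difference was 1 to 4 (4 with a pseudocount of 0.1). Of the alternatives run, other scalings shifted the median log2 difference of all genes from -0.05 to -0.18 (no scaling), -0.03 (median of ratios) and 0.07 (total without the highest genes), and no called iron gene changed sign. The 2187 genes called became 1341 without scaling, 4599 with sample weights, 1375 in E19 alone and 406 in E20 alone, and 1645 to 3071 when 1 sample was left out (3071 without tumor 2). The 5 iron genes called became 1 without scaling (Hamp), 3 in E19 (Tfrc, Tfr2, Cp), 2 in E20 (Hamp, Trf) and 5 to 7 with 1 sample left out. Called relations of Hamp with its 13 genes went from 2 to 0 in E19 and 5 without scaling, and 1 pair of iron genes was called without scaling. The causes were not tested.

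Numbers 1 to 6 are shared by livers and tumors, but the livers came from mice without tumors, so the numbers do not pair samples. The correlation of deviations had a mean of 0.179 in same-numbered pairs (from -0.104 to 0.424, 3 of 6 over 0.1). It was -0.036 on average between different numbers. Most same-numbered pairs also shared the tag, so these values cannot tell number from tag. A replicate block on these 12 samples gave 1375 calls, and 1222 without the block. On these 12 samples Tfr2 lost its call with and without the block (adjusted p = 0.0904 and 0.102), Tfrc lost it only without the block (adjusted p = 0.079), and Ftl1 passed with and without it (adjusted p = 0.0443 and 0.031).

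Hamp2 changed sign without scaling (-0.12), with a pseudocount of 0.1 (-0.21), in E19 (-0.73) and with 1 sample left out (-0.28 to 0.41). Ptprc, at -0.01, changed sign with median-of-ratios scaling (0.00982), total without the highest genes (0.10), a pseudocount of 5 (0.0139), the tag (0.0509), E19 (0.0899), E20 (0.0236), the replicate block and its 12 samples without it (0.12), averaged mice (0.0202) and 1 sample left out (-0.10 to 0.13). So did Hjv in E19 (-0.11), and Wdr11 (0.0625) and Arl6ip6 (0.0546) with the total without the highest genes. The spread difference changed sign for Trf without scaling (0.0707), for Tfrc (-0.17 to 0.12) and Cp (-0.14 to 0.0745) without liver 1. With 1 sample left out, the Fth1 to Ftl1 ratio differed by 0.38 to 0.58 and passed without liver 4, tumor 7 or tumor 8 (exact permutation p = 0.0351 to 0.0444). The Hamp to Slc40a1 ratio (-4.48) lost its call in E19.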
